A study of Mus musculus with 14 samples.

Results

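Scd1, Scd2, Abca1, Plin2, Angptl4 and Fabp4 are 6 genes through which a cell makes unsaturated fatty acids, stores lipid, exports cholesterol and controls the handling of fatty acids. They were taken by name from the tables, and they are 6 of the 9474 genes measured. In macrophages given IL4, a cytokine of type 2 immunity, Scd2, Abca1, Plin2 and Fabp4 rose in culture, and Abca1, Plin2, Angptl4 and Fabp4 rose in bone marrow. The change differed between settings for Scd1, Scd2, Plin2 and Angptl4, though Plin2 did not pass with each library centred on its own median. For Angptl4 the difference did not pass without marrow IL4 library 2 or without marrow control 1. Scd2 rose 11.6-fold in culture and Fabp4 rose 16.3-fold in marrow. Scd1 fell 5.16-fold in marrow, on 11 reads in all IL4 libraries against 57 in all controls, and did not pass the test in culture. Its fall in marrow did not pass without control 1 or without control 2.

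Stearoyl-CoA desaturases, encoded by Scd1 and Scd2, place a double bond in saturated fatty acids and so supply the monounsaturated fatty acids of membranes, triglycerides and cholesteryl esters. Macrophages that take up much lipid store it as esters in droplets coated by perilipin 2 (Plin2), and export cholesterol to apolipoprotein A-I through the transporter ABCA1. The fatty acid binding protein FABP4 carries fatty acids inside adipocytes and macrophages, and ANGPTL4 is a secreted inhibitor of lipoprotein lipase. Many of these genes are known targets of nuclear receptors that sense lipids: liver X receptors for Abca1, and peroxisome proliferator-activated receptors (PPARs) for Plin2, Angptl4 and Fabp4.

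RNA sequencing of C57BL/6J mouse macrophages was made in 2 experiments. In culture, monocytes purified from bone marrow were kept for 7 days with CSF1, the growth factor of macrophages, and with IL4 at 20 ng/mL (4 libraries) or without IL4 (4 control libraries). CSF1 is given as 25 ng/mL in the growth protocol and as 20 ng/mL in the design text. In marrow, F4/80+ cells (F4/80 is a surface protein of mouse macrophages, the product of the gene listed as Emr1) were sorted 12 days after mice received acute myeloid leukemia (AML) cells that carried an IL4 cDNA (3 libraries) or control AML cells (3 libraries). The growth protocol describes the control AML cells as carrying an empty vector and the design text calls them wild type. By the growth protocol and the design text all these mice, controls included, received AML cells. The titles of the marrow control samples carry a code, NBM, that the labels do not explain, so whether the control mice held leukemia was not settled from the labels, and each marrow comparison carries that doubt. In the IL4 group of marrow IL4 came from the leukemia cells rather than from an added dose. The labels do not say whether libraries came from separate mice or cultures, or whether mice were pooled, so p-values measure the spread between these libraries, which may be technical.

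The values as deposited are log2 values, from which whole reads were recovered for 9395 genes (99.2%), among them all 6 lipid genes. Library totals lay between 491451 and 745005 recovered reads, and the median gene had between 23 and 41 reads in a library, which is shallow. Levels are given below as reads, or as reads per 1000000 recovered reads of the library (rpm). As a check of the labels, Retnla, a secreted product of IL4-activated macrophages, had 4641 to 11618 reads in culture IL4 libraries and 895 to 3037 reads in marrow IL4 libraries, against 0 reads in each of the 7 control libraries. Macrophage markers were present in every group (10 of 11 listed were measured, 6 of them with recovered reads): these 6 summed to 2688 to 3121 rpm in culture IL4 libraries, 2104 to 2947 rpm in culture controls, 499 to 600.4 rpm in marrow IL4 libraries and 438 to 502 rpm in marrow controls, with Mertk at 0 in some libraries. Singly, 2 of the 10 rose and 6 fell in culture, and 1 rose and 4 fell in marrow. Csf1r, the CSF1 receptor, fell by 0.96 in culture (limma adjusted p = 0.000544) and fell by 1.17 in marrow (adjusted p = 0.0193), and Emr1 fell by 1.17 in culture (adjusted p = 0.000218) and was 0.81 ± 0.36 in marrow (adjusted p = 0.153). Neutrophil marker genes were abundant in the sorted marrow cells. The 5 measured neutrophil markers of 13 listed summed to 48611 to 60195 rpm in marrow IL4 libraries and 63142 to 72572 rpm in marrow controls, against at most 152 rpm in culture IL4 libraries and 249 rpm in culture controls. The part of neutrophil RNA in the marrow values was not tested. No reads were recovered for Emr1, Csf1r and Lyz2, so the macrophage sums leave them out. Those sums therefore cannot be set against the neutrophil sums. In such bulk samples, fewer cells of a type and less RNA per cell cannot be told apart.

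Scd1 and Scd2 lie near each other on mouse chromosome 19 and share sequence, which bears on how their reads can be told apart. On build mm10 with the GENCODE M21 annotation, Scd1 spans chr19:44394455-44407879 on the minus strand and Scd2 spans chr19:44293674-44306864 on the plus strand. Their longest coding transcripts, of 4832 and 5455 bases, share 145 of the 4783 50-base words of Scd1 (3.03%), and the longest identical run is 147 bases. A read wholly inside that run can belong to either gene, while a read that covers a differing base can be told apart. The stretch of 187 bases around the run is shown from both transcripts for that reason. It lies in exons 4 and 5, wholly in coding sequence, at chr19:44400321-44401825 in Scd1 and chr19:44299682-44301265 in Scd2, each interrupted by an intron. Capitals mark the 2 bases that differ.
Scd1: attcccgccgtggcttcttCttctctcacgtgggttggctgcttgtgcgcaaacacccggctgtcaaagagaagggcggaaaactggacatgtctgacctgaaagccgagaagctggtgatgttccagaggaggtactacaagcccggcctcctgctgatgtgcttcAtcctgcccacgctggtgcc
Scd2: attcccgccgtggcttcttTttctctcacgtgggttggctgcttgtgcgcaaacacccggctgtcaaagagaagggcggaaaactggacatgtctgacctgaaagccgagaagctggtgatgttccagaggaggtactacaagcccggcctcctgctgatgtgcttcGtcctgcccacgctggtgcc
Outside such stretches the transcripts differ, and Scd3, a further desaturase, shares 3.49% of the 50-base words of Scd1. How the authors counted reads that match both genes is not given in the sources used here, so low Scd1 values carry that uncertainty. Scd2 also overlaps the microRNA gene Mir5114 on the same strand, and the other 5 genes overlap no annotated gene.

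The first question was how many of the 6 genes changed with IL4 in each setting. In culture 4 of 6 rose (Scd2, Abca1, Plin2 and Fabp4), 0 fell, and Scd1 and Angptl4 did not pass the threshold, an adjusted p below 0.05 from limma over all 9474 genes. Of all genes in culture, 7.96% rose and 32.6% fell by that threshold. The 6 genes had a median of 1.62 (log2 fold change, IL4 minus control), beside a median over all genes of -0.36, a shift to 0.779-fold in the values as deposited. With each library centred on its own median, 14.4% of genes rose and 12.7% fell in culture, and the same 4 lipid genes passed. The IL4 libraries lay above every control for 3 genes, Scd2, Abca1 and Plin2, where 7.49% of all genes do so, and below every control for 0 genes, where 30.2% do so.

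In marrow 4 of the 6 genes rose (Abca1, Plin2, Angptl4 and Fabp4) and Scd1 fell, while Scd2 was above its controls without passing (adjusted p = 0.0595). Across all genes in marrow, 6.70% rose and 11.5% fell. The 6 genes had a median of 1.98 on the log2 scale, beside -0.063 over all genes. With each library centred, 9.45% of genes rose and 8.92% fell, and Scd2 passed as the fifth gene that rose. No gene of the 6 had overlapping groups in marrow: 5 lay above every control, where 15.5% of all genes do so, and Scd1 lay below every control, where 22.1% do so. The 2 experiments share no libraries.

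**Figure D1:**
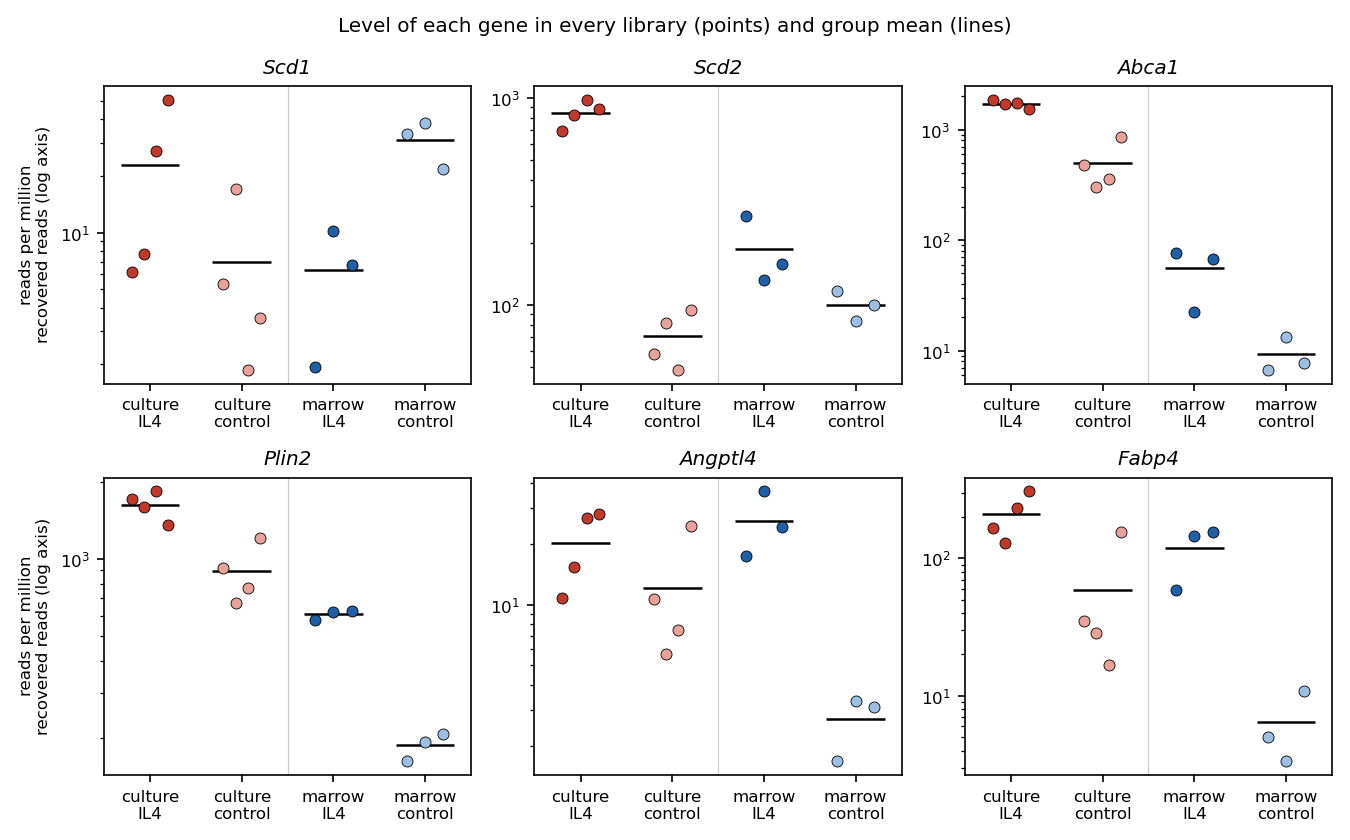
Level of each gene in rpm (log axis) in the 14 libraries, as points, with the group mean as a line, for culture IL4, culture control, marrow IL4 and marrow control. Scd2, Abca1 and Plin2 are separated from their controls in both settings, and Scd1 is lower in all marrow IL4 libraries (1.95 to 10.2 rpm) than in marrow controls (21.7 to 38.3 rpm).

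Scd2 gave the clearest rise in culture. It had 693, 830.3, 982 and 883 rpm in culture IL4 libraries 1 to 4, against 57.7, 81.8, 48.5 and 94.7 rpm in culture controls 1 to 4. All 4 IL4 libraries stood far above all controls, and the spread within each group was small beside the gap. The rise was 3.54 ± 0.21 on the log2 scale (SE, n = 4 and 4, limma adjusted p = 2.43e-06), or 11.6-fold, and Scd2 ranked 53 among all genes in culture by the size of its rise.

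In marrow Scd2 had 269, 132 and 158 rpm in the IL4 libraries, against 117, 83.2 and 99.4 rpm in the controls. The groups did not overlap, but IL4 library 2 was only slightly above control 1. The difference was 0.79 ± 0.25 (log2, SE, n = 3 and 3, limma adjusted p = 0.0595; 95% interval 0.22 to 1.37), or 1.73-fold. It passed with libraries centred (0.90, adjusted p = 0.0489) and without IL4 library 2 (1.0, adjusted p = 0.0319). Without IL4 library 1, the highest, it was 0.50 (adjusted p = 0.124), and without control 2 it was 0.67 (adjusted p = 0.169). The rise of Scd2 was larger in culture than in marrow, by 2.74 ± 0.36 on the log2 scale in a model over all 14 libraries (limma adjusted p = 0.000114), a comparison in which 23.1% of all genes passed, 6.45% with the larger value in culture and 16.6% with the larger value in marrow.

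Scd1, the desaturase that dominates in liver and adipose tissue, was low in all libraries and fell in marrow, the direction opposite to the Scd2 difference. It had 1, 5 and 5 reads in marrow IL4 libraries 1 to 3, against 20, 23 and 14 reads in marrow controls. Every IL4 library was below every control. On the log2 scale the change was -2.37 ± 0.52 (SE, n = 3 and 3, limma adjusted p = 0.0134), 5.16-fold lower, and the summed reads, 11 against 57, gave a ratio of 0.204 with an exact 95% interval of 0.0964 to 0.393 that covers counting error only. The call did not hold without control 1 (-2.30, adjusted p = 0.0506) or without control 2 (-2.20, adjusted p = 0.0559), though the value moved little. Without IL4 library 1 the fall was smallest (-1.82, adjusted p = 0.0213).

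In culture Scd1 had 4, 5, 15 and 27 reads in IL4 libraries 1 to 4, against 4, 9, 1 and 2 reads in controls 1 to 4. IL4 libraries 3 and 4 were above all controls, while libraries 1 and 2 lay inside the control range. The log2 change of 1.43 ± 0.74 had an interval of -0.22 to 3.08 and did not pass (limma adjusted p = 0.15). The changes of Scd1 in culture and in marrow nevertheless differed from each other, by 3.79 ± 1.05 on the log2 scale (limma adjusted p = 0.0183).

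Compared per kilobase of transcript, Scd2 exceeded Scd1 in every library. The ratio of Scd2 to Scd1 was 99.2, 95.5, 32.4 and 15.4 in culture IL4 libraries, against 9.52, 4.23, 23.0 and 23.9 in culture controls. It was 122, 11.5 and 20.7 in marrow IL4 libraries, against 3.10, 1.93 and 4.05 in marrow controls. The ratio was higher in every marrow IL4 library than in any marrow control, and the culture groups overlapped. Scd1 made up 19.8% to 34.2% of the combined per-kilobase level in marrow controls, against 0.8% to 8.0% in marrow IL4 libraries.

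**Figure D2:**
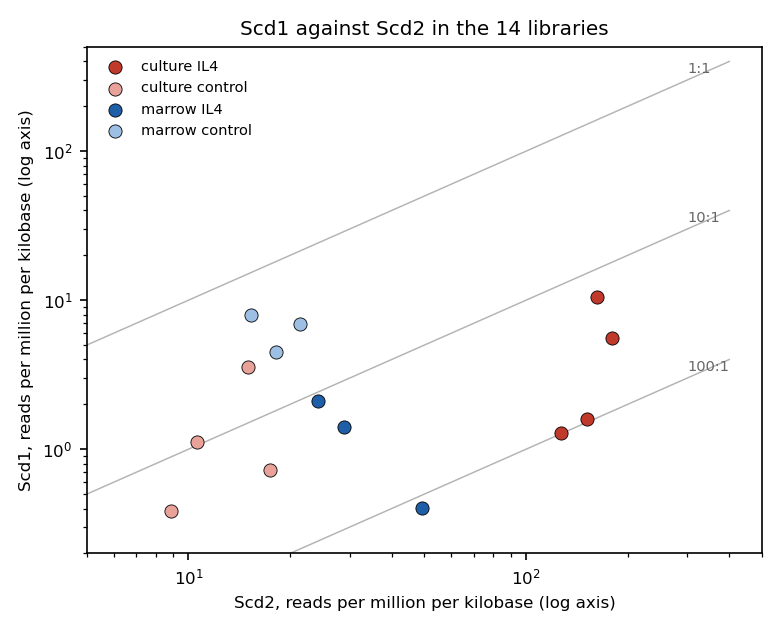
Level of Scd2 (horizontal) against Scd1 (vertical) in each library, both in rpm per kilobase of transcript on log axes, with lines at Scd2 to Scd1 ratios of 1, 10 and 100. Culture IL4 libraries lie to the right, at ratios of 15.4 to 99.2, and marrow controls lie nearest the line of equal level, at ratios of 1.93 to 4.05.

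Abca1 rose in both settings. This transporter gene spans chr4:53030787-53159895 on the minus strand. In culture it had 1868, 1695, 1737 and 1518 rpm in IL4 libraries, against 475, 301, 358 and 854 rpm in controls. The IL4 libraries were tightly grouped above all controls, and control 4 was the highest control. This rise was 1.82 ± 0.26 on the log2 scale (SE, n = 4 and 4, limma adjusted p = 0.000516), or 3.54-fold.

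In marrow Abca1 was low, with 39, 11 and 50 reads in IL4 libraries, against 4, 8 and 5 reads in controls. IL4 library 2 stood between the other IL4 libraries and the controls, and the groups did not overlap. The rise was 2.31 ± 0.48 (log2, SE, n = 3 and 3, limma adjusted p = 0.0102), or 4.97-fold, and the ratio of summed reads was 6.22 (exact 95% interval 3.69 to 11.1). The change in culture minus that in marrow was -0.49 ± 0.55 (limma adjusted p = 0.556), with an interval of -1.66 to 0.68. That interval leaves room for a sizeable difference either way, so the changes were not shown to be equal.

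Plin2, the droplet coat protein, also rose in both settings. It spans chr4:86648386-86670060 on the minus strand. In culture it had 1710.3, 1587, 1837 and 1351 rpm in IL4 libraries, against 918, 672, 771 and 1207 rpm in controls. The highest control, library 4, came close to the lowest IL4 library, also numbered 4, without reaching it. It rose by 0.82 ± 0.17 on the log2 scale (SE, n = 4 and 4, limma adjusted p = 0.00442), or 1.76-fold.

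In marrow Plin2 had 575, 621 and 625 rpm in IL4 libraries, against 162, 193 and 207 rpm in controls. Both groups were tight and well apart. Its rise of 1.65 ± 0.13 on the log2 scale (SE, n = 3 and 3, limma adjusted p = 0.000111), or 3.14-fold, had the smallest standard error among the 6 genes in either setting. The rise in culture was smaller than in marrow by 0.83 on the log2 scale (culture minus marrow -0.83 ± 0.23, limma adjusted p = 0.0196). With libraries centred this difference was -0.58 (adjusted p = 0.139). The median of all genes for the same contrast was -0.30.

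The promoters of Abca1 and Plin2, the members for which RefSeq promoter sequence was at hand (2 of 6), are shown because both genes rose in both settings. Each window is the 250 bases before the RefSeq transcription start on GRCm38.p6, printed on the gene's own strand. Capitals mark matches, on either strand, to 5 motifs: AGGTCA, the core site of nuclear receptors; TGACCG and TAACC spaced by 4 bases, the direct repeat bound by liver X receptors at the human ABCA1 promoter; CACGTG, an E-box; TTC and GAA spaced by 4 bases, the palindrome preferred by STAT6, the factor that IL4 activates; and TATAAA, the TATA box. The Abca1 window is chr4:53159896-53160145 and the Plin2 window is chr4:86670060-86670309.
Abca1: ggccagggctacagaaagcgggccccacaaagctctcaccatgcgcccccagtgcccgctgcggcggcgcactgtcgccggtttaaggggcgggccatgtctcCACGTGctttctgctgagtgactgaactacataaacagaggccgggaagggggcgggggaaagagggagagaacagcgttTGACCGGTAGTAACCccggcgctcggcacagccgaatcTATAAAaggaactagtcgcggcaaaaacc
Plin2: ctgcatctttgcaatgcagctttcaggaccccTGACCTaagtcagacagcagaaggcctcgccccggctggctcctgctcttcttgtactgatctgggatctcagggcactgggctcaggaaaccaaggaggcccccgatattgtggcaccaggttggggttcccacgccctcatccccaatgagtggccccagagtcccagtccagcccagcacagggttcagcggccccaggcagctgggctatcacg
The Abca1 window held TGACCGGTAGTAACC at -67 to -53, CACGTG at -147 to -142 and TATAAA at -29 to -24, counted from the start. The Plin2 window held 1 match to AGGTCA, read as TGACCT on the printed strand, at -218 to -213. The matches do not overlap each other. Among 32851 promoter windows of the same length, the spaced pair of TGACCG and TAACC was found in 4 (0.0122%), AGGTCA in 14%, CACGTG in 6.02%, the spaced pair of TTC and GAA in 5.85% and TATAAA in 12.4%. These matches describe the sequence, and binding was not measured. The pair of TGACCG and TAACC was taken from the human ABCA1 promoter, so its rarity among windows is no test of the Abca1 match.

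Angptl4, the lipase inhibitor, rose in marrow. It spans chr17:33773750-33781830 on the minus strand. In marrow it had 9, 18 and 18 reads in IL4 libraries, against 1, 2 and 2 reads in controls. Even the lowest IL4 library had several times the reads of any control. The rise was 2.87 ± 0.31 on the log2 scale (SE, n = 3 and 3, limma adjusted p = 0.000456), or 7.30-fold, and the summed reads, 45 against 5, gave a ratio of 9.51 with a wide exact 95% interval of 3.79 to 30.7.

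In culture Angptl4 had 7, 10, 15 and 15 reads in IL4 libraries, against 8, 3, 4 and 14 reads in controls. Controls 1 and 4 lay inside the range of reads of the IL4 libraries. The log2 change of 0.74 ± 0.41 did not pass (limma adjusted p = 0.178, interval -0.18 to 1.66), and without control 4 it was 1.11 (adjusted p = 0.0263). The rise in culture was smaller than in marrow by 2.13 (culture minus marrow -2.13 ± 0.60, limma adjusted p = 0.0200). This difference was -1.86 (adjusted p = 0.0548) without marrow IL4 library 2 and -1.90 (adjusted p = 0.0540) without marrow control 1.

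Fabp4, the fatty acid carrier, rose in both settings. It spans chr3:10204088-10208576 on the minus strand and shares no 50-base word with Fabp5, its close relative. In marrow it had 30, 71 and 115 reads in IL4 libraries, against 3, 2 and 7 reads in controls. All IL4 libraries were well above all controls, and IL4 library 1 was the lowest of them. Fabp4 rose by 4.02 ± 0.47 on the log2 scale (SE, n = 3 and 3, limma adjusted p = 0.000654), or 16.3-fold, the largest among the 6 genes in the 2 settings, with a ratio of summed reads of 19 (exact 95% interval 10.7 to 37.4).

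In culture Fabp4 had 165, 129, 231 and 308 rpm in IL4 libraries, against 34.9, 28.5, 16.8 and 154 rpm in controls. Control 4 was above IL4 library 2, and the other 3 controls were far below every IL4 library. It rose by 2.20 ± 0.56 on the log2 scale (SE, n = 4 and 4, limma adjusted p = 0.0110), or 4.59-fold, and 2.82 (adjusted p = 0.000189) without control 4, which moves the fold by over 1.5 times. The change in culture minus that in marrow was -1.83 ± 0.85 and did not pass (limma adjusted p = 0.134, unadjusted interval -3.64 to -0.012). Without culture control 4 it was -1.20 (adjusted p = 0.171).

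**Figure D3:**
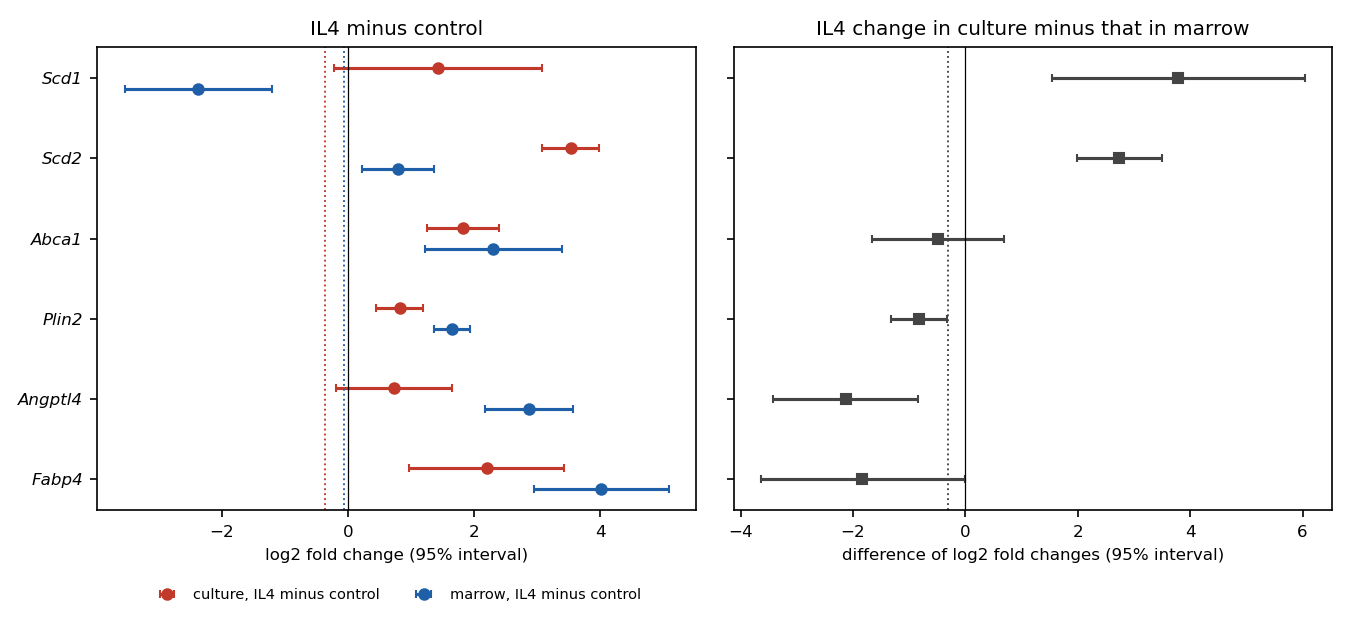
Left, log2 fold change, IL4 minus control, with its 95% interval for each gene in culture (red, upper) and marrow (blue, lower). Right, the change in culture minus that in marrow. Dotted lines are the medians over all genes (-0.36 in culture, -0.063 in marrow and -0.30 for the difference). Scd1 and Scd2 lie right of 0 in the right panel (3.79 and 2.74), and Plin2 and Angptl4 lie left of it (-0.83 and -2.13).

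Across both settings, 4 of the 6 genes differed in their change, where 23.1% of all genes did: both desaturases had the larger value in culture, and Plin2 and Angptl4 had the larger value in marrow. With libraries centred, where 9.38% of all genes had the larger value in culture and 9.50% the larger value in marrow, Plin2 no longer passed and the other 3 did.

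Culture control 4 stood highest of the 4 controls for Scd2, Abca1, Plin2, Angptl4 and Fabp4. Leaving out both culture libraries numbered 4, chosen after their values were seen, left the culture calls of all 6 genes on the same side of the threshold. The values were then 3.65 for Scd2, 2.16 for Abca1, 1.04 for Plin2, 2.61 for Fabp4, 0.92 for Angptl4 (adjusted p = 0.0527) and 0.72 for Scd1 (adjusted p = 0.473).

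Genes listed as markers of other cell types moved with the groups too. Whether their RNA came from such cells or from the macrophages was not tested. The 3 measured endothelial markers of 12 listed (Pecam1, Vwf and Eng) went different ways: Pecam1 and Vwf rose and Eng fell in culture (for Eng the adjusted p was 0.602 with libraries centred), and Pecam1 rose and Eng fell in marrow. They summed to 353 to 468 rpm in culture IL4 libraries, against 131 to 200 rpm in culture controls, and to 159.8 to 247 rpm in marrow IL4 libraries, against 58.2 to 97.8 rpm in marrow controls. Endothelial cells are known to express Fabp4, and Pecam1 and Vwf were at 0 in some libraries. The 3 measured eosinophil markers of 8 listed (Prg2, Ccr3 and Ear2) summed to 732 to 2509.8 rpm in culture IL4 libraries and 14.8 to 29.8 rpm in culture controls, and to 402 to 550.3 rpm in marrow IL4 libraries and 133 to 176 rpm in marrow controls, each of them at 0 in some library. Singly, only 1 of the 3 rose in culture and 2 rose in marrow, and 0 fell in either. Of 12 adipocyte markers only Lipe was among the measured genes, at 13.9 to 18.8 rpm in culture IL4 libraries, 26.6 to 43.0 rpm in culture controls, 46.8 to 83.6 rpm in marrow IL4 libraries and 26.6 to 46.7 rpm in marrow controls. Scd1 fell in marrow beside the monocyte markers: 6 of 10 listed were measured, 5 of these fell and 1 rose, and the 5 with reads summed to 248 to 548 rpm in marrow IL4 libraries, against 4581 to 6234 rpm in marrow controls, with Cx3cr1 at 0 in some libraries. The 1 that rose in marrow was Chil3 (2.95 on the log2 scale, limma adjusted p = 7.09e-06). It also rose in culture, by 12.58 (limma adjusted p = 6.90e-09). No reads were recovered for Chil3, so the monocyte sums leave it out. In culture 2 monocyte markers rose and 3 fell, and the 5 with reads summed to 4054 to 5509.8 rpm in IL4 libraries, against 919 to 1636 rpm in controls. Both erythroid markers measured of 13 listed fell in marrow, with 205 to 286 rpm in IL4 libraries, against 1519 to 1583 rpm in controls, and rose in culture, with 533 to 1459.7 rpm in IL4 libraries, against 73.7 to 188 rpm in controls. All 3 B cell markers measured of 10 listed fell in marrow, while 2 rose and 1 fell in culture. The 1 measured T and NK cell marker of 10, Il7r, rose in culture and fell in marrow. The 3 measured stromal markers of 10 fell in culture, with 77.3 to 219 rpm in IL4 libraries, against 817 to 1984 rpm in controls, and 2 of them rose in marrow, where they summed to 9.75 to 18.3 rpm in IL4 libraries, against 1.66 to 6.67 rpm in controls. The 3 measured progenitor and leukemic blast markers of 10 (Cd34, Gata2 and Sox4) summed to 244 to 279 rpm in marrow IL4 libraries, against 126 to 152 rpm in marrow controls, where Gata2 rose and Sox4 fell. In culture 2 of these fell and 0 rose. The part of these cells in the values of the 6 genes was not tested.

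Levels across the 4 groups are a description, since the tables belong to separate experiments. Abca1 and Plin2 had the same order, with no overlap between neighbours: culture IL4, culture control, marrow IL4, marrow control. Mean Abca1 was 1704 ± 145, 497 ± 249, 55.3 ± 28.8 and 9.25 ± 3.56 rpm in that order (SD, n = 4, 4, 3 and 3). Mean Plin2 was 1621 ± 207, 892 ± 233, 607 ± 27.5 and 187 ± 23.0 rpm in the same order. At the middle step culture controls stood 8.99-fold (Abca1) and 1.47-fold (Plin2) above marrow IL4 libraries.

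Scd2 ran from culture IL4 (847 ± 121 rpm) through marrow IL4 (186 ± 72.7) and marrow control (99.8 ± 16.8) to culture control (70.7 ± 21.3), and the last pair overlapped. Fabp4 ran from culture IL4 (209 ± 78.6 rpm) through marrow IL4 (119 ± 53.0) and culture control (58.6 ± 64.2), which overlapped their neighbours, to marrow control (6.40 ± 3.96), 9.16-fold below culture control with no overlap. Angptl4 was highest in marrow IL4 (26.1 ± 9.68 rpm), then culture IL4 (20.3 ± 8.55) and culture control (12.1 ± 8.55), all overlapping, and lowest in marrow control (2.70 ± 0.902) with no overlap. Scd1 was highest in marrow control (31.1 ± 8.48 rpm), then culture IL4 (22.9 ± 20.8), culture control (6.97 ± 6.92) and marrow IL4 (6.29 ± 4.13), and every neighbouring pair overlapped. Marrow controls thus had the lowest mean for Abca1, Plin2, Angptl4 and Fabp4, and the highest for Scd1.

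Among the receptors and factors known to act on these genes, Pparg, the PPAR of adipocytes and macrophages, rose in both settings. In culture it had 70 to 93 reads in IL4 libraries and 17 to 44 reads in controls, a log2 fold change of 1.59 ± 0.25 (limma adjusted p = 0.000878). In marrow it had 9 to 18 reads in IL4 libraries, against 1 read in all controls together, a ratio of 40.2 with an exact 95% interval of 6.78 to 1627 (limma adjusted p = 0.00100). Nr1h3, which encodes liver X receptor alpha, did not pass, with 0.41 ± 0.41 in culture (adjusted p = 0.449) and 1.55 ± 0.53 in marrow (adjusted p = 0.0752), where it had 14 reads in all IL4 libraries and 4 in all controls. Srebf1, the sterol regulatory factor known to act on Scd1 and Scd2, did not pass either (0.11 ± 0.16, adjusted p = 0.625 in culture; 0.09 ± 0.20, adjusted p = 0.806 in marrow). Ppard was lower in culture by -1.05 ± 0.24 (adjusted p = 0.00627; with libraries centred -0.68, adjusted p = 0.0503) and was -0.15 ± 0.21 in marrow (adjusted p = 0.666).

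Of the 17 measured lipid-regulating factors and cofactors, 4 rose and 6 fell in culture (4 and 1 with libraries centred), and 1 rose and 4 fell in marrow (4 and 4 centred). Cebpb and Klf4, factors of myeloid and adipocyte differentiation, went opposite ways: Cebpb rose by 1.86 ± 0.33 in culture (adjusted p = 0.002) and fell by 1.80 in marrow (adjusted p = 0.00250), and Klf4 rose by 1.46 ± 0.21 in culture (adjusted p = 0.000567) and fell by 1.45 in marrow (adjusted p = 0.000529). Rxra, the partner receptor of PPARs and liver X receptors, fell by 1.24 in culture (adjusted p = 8.72e-05).

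Genes of lipid metabolism, with the 6 genes included, were counted in 8 lists. The counts are to be read beside the shares of all genes given above (7.96% rose and 32.6% fell in culture, 6.70% rose and 11.5% fell in marrow). Without the 6 genes, rises in culture numbered 0 for desaturation and elongation, 4 for storage, 2 for lipolysis, 3 for efflux and 3 for uptake. In marrow they numbered 0, 1, 2, 3 and 0 in that order. Among falls, only the marrow count for desaturation and elongation changed, to 3. Of the 15 measured desaturation and elongation genes, Scd2 alone rose in culture and 6 fell, a share near that of all genes that fell (4 of the 15 fell with libraries centred, and 2 rose), and 0 rose and 4 fell in marrow, Scd1 among them. Elovl6, which elongates palmitate, fell by 3.59 (SE 0.48, adjusted p = 0.000381) in culture. Fads1, the delta-5 desaturase of polyunsaturated fatty acids, fell by 1.81 in culture (SE 0.34, adjusted p = 0.00260), and Fads2, the delta-6 desaturase, fell by 2.77 in marrow (SE 0.79, adjusted p = 0.0402). The list median was -0.14 in culture and -0.42 in marrow, beside -0.36 and -0.063 over all genes. Without Scd1 and Scd2 the list median was -0.56 in culture and -0.42 in marrow.

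Genes of triglyceride and sterol ester storage, 16 measured, gave 5 rises and 2 falls in culture (7 and 1 centred) and 2 rises and 1 fall in marrow (3 and 0 centred), with medians of 0.31 and 0.18. Hilpda, a droplet protein that inhibits lipolysis, rose by 3.61 ± 0.77 in culture (adjusted p = 0.00467). Dgat1, the last enzyme of triglyceride synthesis, rose by 0.93 ± 0.27 in culture (adjusted p = 0.0194) and by 0.74 ± 0.17 in marrow (adjusted p = 0.0176). Lpin2, a phosphatidate phosphatase, fell by 2.11 in culture (adjusted p = 8.65e-06) and by 0.86 in marrow (adjusted p = 0.0396, and 0.0540 with libraries centred), and the fall of Acsl5 by 0.74 in culture (adjusted p = 0.00846) was lost with libraries centred (-0.38, adjusted p = 0.116).

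The 11 measured genes of lipolysis and lipase control gave 2 rises and 2 falls in culture (5 and 0 centred) and 3 rises and 0 falls in marrow. Mgll, the monoglyceride lipase, rose by 3.56 ± 0.61 in culture (adjusted p = 0.00157), and Lpl, the lipase that ANGPTL4 inhibits, by 1.34 ± 0.33 (adjusted p = 0.00992). In marrow Lpl was 0.50 ± 0.36 (adjusted p = 0.375), while Pnpla2, the triglyceride lipase of droplets, rose by 0.93 ± 0.19 (adjusted p = 0.00885). The culture falls of Lipe by 1.02 (adjusted p = 0.0285) and Lmf2 by 0.77 (adjusted p = 0.0116) were lost with libraries centred (adjusted p = 0.154 and 0.127).

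The 19 measured genes of cholesterol efflux and transport were split: 4 rose and 8 fell in culture (5 and 6 centred), and 4 rose and 6 fell in marrow. Abcg1, which exports cholesterol to high-density lipoprotein, rose with Abca1, by 2.67 ± 0.49 in culture (adjusted p = 0.00225) and 1.64 ± 0.22 in marrow (adjusted p = 0.00127). Pltp, the phospholipid transfer protein, rose by 2.20 ± 0.26 in culture (adjusted p = 0.000157). Both measured apolipoprotein genes fell in both settings. Apoc2 fell by 3.48 in culture (adjusted p = 0.00168) and fell by 3.45 in marrow (adjusted p = 0.00439). Apoe fell by 1.76 in culture (adjusted p = 0.0105) and fell by 1.51 in marrow (adjusted p = 0.00775). Cyp27a1, the sterol 27-hydroxylase, fell by 2.38 in marrow (adjusted p = 0.000346).

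Of 12 measured genes of fatty acid and lipoprotein uptake and binding, 4 rose and 3 fell in culture (5 and 1 centred), and 1, Fabp4, rose and 3 fell in marrow (2 rose centred). Olr1, a receptor for oxidised lipoprotein, rose by 3.46 ± 0.58 in culture (adjusted p = 0.00129). Cd36, a fatty acid and lipoprotein receptor, rose by 1.70 ± 0.30 in culture (adjusted p = 0.00176) and was -0.93 ± 0.63 in marrow (adjusted p = 0.345), a difference of 2.63 ± 0.71 (adjusted p = 0.0165). Lrp1, a receptor that takes up lipoprotein remnants, fell by 2.83 in marrow (adjusted p = 0.000255). In culture Got2, whose product also binds fatty acids, fell by 0.93 (adjusted p = 0.00343), and the fall of the scavenger receptor Msr1 by 0.63 (adjusted p = 0.0223) was lost with libraries centred (adjusted p = 0.318). Fabp5 passed in neither setting (0.53 ± 0.32, adjusted p = 0.201 in culture; 0.97 ± 0.37, adjusted p = 0.101 in marrow).

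Of 9 measured genes of fatty acid synthesis, 0 rose and 2 fell in culture (0 and 0 centred), and 1, Fasn, the fatty acid synthase, rose in marrow (0.92 ± 0.19, adjusted p = 0.00961). The 2 culture falls were those of the mitochondrial genes Mecr (by 1.03, adjusted p = 0.0484, and 0.198 centred) and Oxsm (by 0.84, adjusted p = 0.0375, and 0.249 centred). Of 28 measured genes of fatty acid oxidation, 4 rose and 5 fell in culture (8 and 1 centred), and 6 rose and 2 fell in marrow (9 and 1 centred). Hadhb, of the mitochondrial trifunctional protein, rose by 0.91 ± 0.27 in culture (adjusted p = 0.0218), and the peroxisomal oxidase Acox3 by 0.61 ± 0.17 (adjusted p = 0.0154). The acyl-CoA thioesterase Acot1 fell by 2.54 in culture (adjusted p = 0.00147) and rose by 1.64 ± 0.21 in marrow (adjusted p = 0.00111), where its close copy Acot2 rose by 2.15 ± 0.26 (adjusted p = 0.000713), and reads of this pair may be split between them. Acad9 fell in both settings (by 0.73 in culture, adjusted p = 0.0492, and 0.344 centred, and with -1.27 in marrow, adjusted p = 0.0287), and Ucp2 fell by 0.45 in marrow (adjusted p = 0.0347, and 0.0813 centred).

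**Figure D4:**
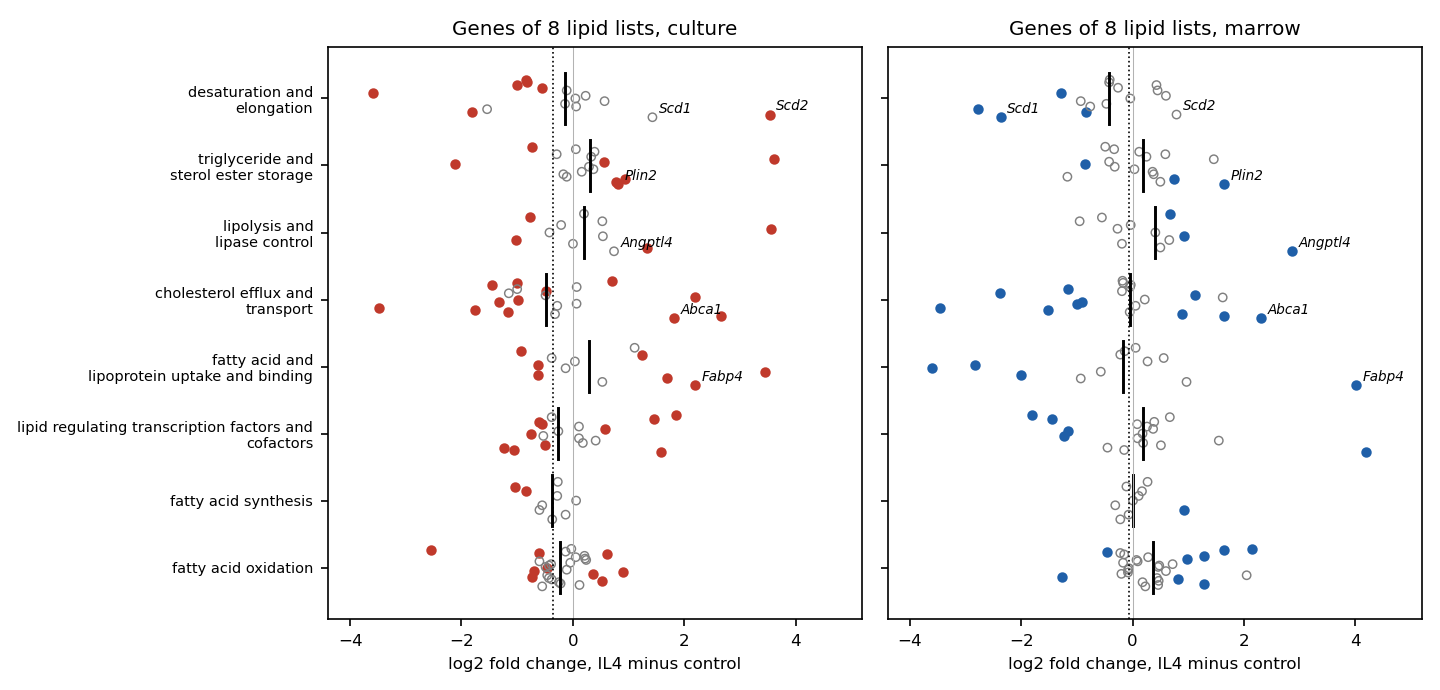
Log2 fold change, IL4 minus control, of each measured gene of 8 lipid lists in culture (left) and marrow (right), with filled points for an adjusted p below 0.05, bars for list medians and a dotted line for the median of all genes. The 6 genes described here are named, and Scd2 in culture (3.54) lies above the other measured genes of the desaturation and elongation list.

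The genes whose pattern was most like each of the 6 were found by Pearson correlation over the 14 libraries, each table centred on its own mean per gene, among 6216 genes. The points share libraries and fall into IL4 and control groups, so these values describe a likeness and carry no test. For Scd2 they were Zyx (r = 0.98), Chil3 (0.97), a chitinase-like product of IL4-activated macrophages, and Dhrs9 (0.97). For Abca1 they were Pip5k1c (0.96), Got1 (0.95) and Plekhg1 (0.95), and for Scd1, less closely, Ndufb5 (0.86), Pde3b (0.84) and Spty2d1 (0.84). Anpep, the membrane aminopeptidase CD13, was shared by Plin2 (0.97), Angptl4 (0.93) and Fabp4 (0.96), and Tbxas1, thromboxane synthase, by Angptl4 (0.93) and Fabp4 (0.96). The remaining likest genes were Vat1 (0.96) and Hk3 (0.96) for Plin2, Dhrs3 (0.92) for Angptl4 and Fam20c (0.94) for Fabp4.

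In the authors' deposited table for culture the fold changes of these genes read very differently from those above: 14.5 for Scd1, 1.70 for Scd2, 1.28 for Abca1, 1.09 for Plin2, 1.19 for Angptl4 and 1.68 for Fabp4. By that column of the authors' deposited table Scd1 has the largest rise, whereas from the library values it is 2.69-fold, did not pass, and Scd2 is highest at 11.6-fold. The authors' deposited table for culture matched a second log2 taken of the log2 values for 100% of the 8390 genes with values above 0 in every library, and the plain difference of log2 values for 1.98% of all genes. Scd1 is not among those 8390 genes, since its log2 values were -0.915 in culture control 3 and -0.337 in culture control 4. The match was therefore not shown for the deposited Scd1 fold of 14.5. In the authors' deposited table for marrow the folds equal the plain difference for 100% of genes. The q-values in the authors' deposited table for culture were 0.183 for Scd1, 0.00118 for Scd2, 0.0143 for Abca1, 0.0265 for Plin2, 0.294 for Angptl4 and 0.0727 for Fabp4. Those in the authors' deposited table for marrow were 0.110 for Scd1, 0.228 for Scd2, 0.110 for Abca1, 0.0193 for Plin2, 0.0372 for Angptl4 and 0.0457 for Fabp4. The limma adjusted p passed for Scd1 and Abca1 in marrow and for Fabp4 in culture where the authors' deposited q did not.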

How the data were processed

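Per the labels' protocols, RNeasy Micro columns and the TruSeq RNA v2 kit were used for RNA and libraries. The tools bcl2fastq and TopHat2 2.0.13 and the build mm10 are named in the submitters' processing notes. How reads were counted, genes filtered, values scaled and strand used is not given in the sources used here. The authors deposited 1 table per experiment with the same 9474 genes, and its per-library values are log2 values. They equal the log2 of whole reads plus 0.5, with 1 offset for each gene and 1 for each library. Once the offsets were solved for, whole reads were recovered for 9395 genes (99.2%; largest residual 0.000725 where reads were below 100). For the other 79 genes, among them Lyz2, Chil3, Emr1, Csf1r and Lpl, no reads were recovered, so they are left out of library totals, and only their log2 values were used. Log2 levels cannot be compared between genes. The tables also give a fold change column, a ratio, and a p-value and q-value per gene, deposited by the authors, from a test that the file headers do not name. The marrow ratio is the linear fold of the log2 values. The culture ratio matches a second log2 of them for genes with values above 0.5 in every culture library. Unused columns of per-sample values numbered 0.

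The log2 values were tested as deposited with limma 3.58.1 in R 4.3.3 (variance trend, no covariate), within each table (6 residual degrees of freedom in culture, 4 in marrow). The difference of the responses was a contrast of the 4 group means over all 14 libraries (10 residual degrees of freedom). P-values are two-sided and adjusted by the Benjamini-Hochberg method over 9474 genes. Intervals of ratios of summed reads are exact 95% binomial intervals (SciPy 1.17.1). They cover counting error only, since reads are not independent molecules. The fit and the recovery were tested on simulated data. The genes, lists, tests and the rule for named genes were chosen with earlier results of these data known. By that rule the text names the 6 genes, some regulators and label checks, up to 2 largest rises and 2 largest falls per list among genes past the threshold, and the 3 genes most like each of the 6. A result that this rule would name is not reported here. Alternatives were median centring, quantile normalization, no variance trend, 2 reads added, a filter at the 25th percentile of mean level, the replicate number as a block, a z of separate fits, and each library left out. Positions and transcripts are from GENCODE M21 and promoters from RefSeq, both on the build of the files.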

Additional observations from a re-analysis of the deposited data

Results flagged for a closer look

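The responses of 4 of the 6 lipid genes differed between the settings, where 23.1% of all genes did. With libraries centred, the difference for Plin2 was -0.58 and did not pass (limma adjusted p = 0.139). The difference for Angptl4 did not pass without marrow IL4 library 2 (limma adjusted p = 0.0548) or without marrow control 1 (0.0540). The change with IL4 in culture minus that in marrow was 3.79 for Scd1 (limma adjusted p = 0.0183), 2.74 for Scd2 (0.000114), -0.83 for Plin2 (0.0196) and -2.13 for Angptl4 (0.0200), on the log2 scale. The part of the differing cell mixtures of the settings in these differences was not tested.

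Single culture IL4 libraries lay far from the other 3 for 5 of the 52 named genes, and none of them was one of the 6 lipid genes. Il4ra, the IL4 receptor chain, was 4.9335 (log2) in IL4 library 3 and 5.0871 to 5.1154 in the others. In IL4 library 4, Retnla was 12.414, against 10.867 to 11.066 in the others, Arg1 was 7.6708, against 9.6017 to 9.6779, and Oxsm was 3.0337, against 1.9945 to 2.1334. Acot2 was 2.5124 in IL4 library 2 and 4.0369 to 4.2233 in the others. Chance marks about 1 in 20 groups, and 104 groups of 4 were examined. Groups of 3 were not examined.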

How the results depend on the processing

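Of the values of the 6 genes under the alternatives, 88 of 89 in culture, 62 of 69 in marrow and 125 of 131 for the difference kept their direction and their side of the threshold, and 0 reversed. Scd2 in marrow passed with libraries centred (0.90, adjusted p = 0.0489), with quantile normalization (0.86, 0.0480), with 2 reads added (0.83, 0.00137) and with the replicate block (0.79, 0.0144). It did not pass without the variance trend (0.79, 0.119) or with the filter on mean level (0.79, 0.0550). The difference for Plin2 failed with libraries centred (-0.58, 0.139) and with quantile normalization (-0.73, 0.0646), and that for Fabp4 passed in a z of separate fits (-1.83, 0.0408). The causes were not tested.

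Leaving out each library in turn gave 0.50 to 1.11 for Angptl4 in culture (adjusted p 0.0263 to 0.389, past the threshold without control 4), 0.50 to 1.0 for Scd2 in marrow (0.0319 to 0.169, past it without IL4 library 2) and -2.79 to -1.82 for Scd1 in marrow (0.00882 to 0.0559, not past it without control 1 or control 2). The difference between settings ranged from -0.94 to -0.69 for Plin2 (adjusted p 0.00926 to 0.0555, not past the threshold without marrow control 1, at -0.73) and from -2.37 to -1.76 for Angptl4 (0.0132 to 0.0548). For Fabp4 it ranged from -2.27 to -1.20 (0.0689 to 0.265), -1.20 being without culture control 4. Genes called in marrow numbered 1104 to 1460, against 1721 with all libraries, with 1147 without control 2 and 1104 without control 3. They numbered 2995 to 4004 in culture, against 3838, and 1792 to 2589 for the difference, against 2186.

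Deviations of libraries with the same number were weakly correlated (-0.05 to 0.02 in culture and 0.03 to 0.06 in marrow). For libraries with different numbers the correlations were -0.03 to 0.03 in culture and -0.04 to 0.01 in marrow. Correlations this small do not settle whether the numbers pair the libraries. With the replicate block 3447 genes were called in culture, 1764 in marrow and 1925 for the difference, and Scd2 in marrow was the only call among the 6 genes that changed. The filter on mean level gave no value for Scd1 in any comparison, or for Abca1 and Fabp4 in marrow. It used log2 values, which carry an offset for each gene, so it does not select by reads. In marrow it kept Angptl4, with 45 summed reads in IL4 libraries and 5 in controls. It dropped Fabp4, with 216 and 12. The variance trend follows the same log2 levels, and without it 1307 genes were called in marrow, against 1721. Centring also moved the list counts given above. Depth limits Scd1, Angptl4, and Abca1 and Fabp4 in marrow controls, which had at most 23 reads in a control library.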
